A study of Mus musculus with 15 samples.

Results

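The genes described are 6 signal transducers and activators of transcription (Stat2, Stat3, Stat4, Stat5a, Stat5b and Stat6) and 3 Janus kinases (Jak1, Jak2 and Jak3), chosen by their gene symbols, and they are 9 of the 24089 symbols in the deposited RNA-seq files. Each had 1 entry of its own in every file. Other members of the 2 families are not analysed here. RNA was sequenced from ILC2s of the gut lamina propria (LP), sorted as CD45+Lin-CD127+Sca1+CD25+KLRG1+ cells, and from ILC2 precursors (ILC2p) of the bone marrow (BM), sorted as CD45.2+Lin-CD127+α4β7+CD25+ cells from irradiated CD45.1+ hosts that had received this BM mixed with CD45.1+ BM 6 weeks earlier. The LP cells and the CD45.2+ BM came from Tgfbr2f/f ER-Cre+ C57BL/6 mice of 8 to 12 weeks, in which Cre is fused to an estrogen receptor and acts in any cell that tamoxifen reaches. Mice given sunflower oil are called WT and mice given tamoxifen, 1 mg a day for 5 days, are called Tgfbr2-/-, so that the drug and the genotype cannot be told apart. Both genotypes were present in 2 experiments for each cell type, which gave 4 WT and 3 Tgfbr2-/- ILC2 libraries and 4 WT and 4 Tgfbr2-/- ILC2p libraries. Counts on genes totalled 12167066 to 32114265 per ILC2 library (median 20983448) and 10957021 to 35961215 per ILC2p library. The labels do not say whether the libraries came from separate animals, so the p-values measure the spread between libraries, which may be technical.

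Most cytokine receptors of lymphocytes have no enzyme activity of their own. They carry JAK kinases on their tails, and on binding of the cytokine these kinases phosphorylate the receptor and the STAT proteins that dock to it, which then pair, enter the nucleus and switch on genes that include the SOCS family of feedback inhibitors. JAK1 and JAK3 work with the common γ chain, which ILC2s use to receive IL-2, IL-4, IL-7 and IL-9, and these signals run largely through STAT5A, STAT5B and STAT6. JAK2 serves the receptors of IL-5, GM-CSF and IFN-γ, STAT3 those of the IL-6 and IL-10 families and of G-CSF, STAT4 that of IL-12, and STAT2 those of type I and type III interferon. The STATs act as proteins after phosphorylation, and the values below are mRNA levels only.

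Stat3, Stat5a and Stat5b lie side by side on mouse chromosome 11 (mm9, GENCODE annotation of NCBIM37): Stat5b at chr11:100642045-100712038 on the minus strand, Stat5a at chr11:100720665-100746483 on the plus strand and Stat3 at chr11:100746412-100800854 on the minus strand. The gap between Stat5b and Stat5a is 8626 bases. The 3′ ends of Stat5a and Stat3 overlap, and the authors' counting left out stretches shared by genes of different names. Stat6 (chr10:127080042-127098013) and Stat2 (chr10:127707629-127729905) share chromosome 10. Stat4 is at chr1:52043992-52164032, Jak1 at chr4:100824972-100937887, Jak2 at chr19:29326318-29387570 and Jak3 at chr8:74200195-74214474.

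Stat5a and Stat5b are near copies, which bears on any value of either, and the stretches printed next show how alike they are. Their coding sequences were identical at 2081 of 2461 aligned columns (84.6%), whereas other STAT pairs shared 45.9 to 58.1% and JAK pairs 48.5 to 54.7%. The first 60 coding bases, from the annotated transcripts, are shown 5′ to 3′ with the bases that differ in capitals.

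Stat5a: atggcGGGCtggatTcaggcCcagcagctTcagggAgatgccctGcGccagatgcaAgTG
Stat5b: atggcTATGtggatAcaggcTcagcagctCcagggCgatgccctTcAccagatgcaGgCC

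These 60 bases were identical at 47 positions. Further in, coding bases 571 to 894 were identical in both genes without a break, a run of 324 bases. The stretch where this run begins, coding bases 541 to 600, reads as follows, again with the only difference in capitals.

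Stat5a: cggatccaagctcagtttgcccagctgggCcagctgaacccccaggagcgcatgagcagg
Stat5b: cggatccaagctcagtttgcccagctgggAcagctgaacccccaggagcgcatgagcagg

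Of the 50-base windows of each transcript, 17.1% of those of Stat5a and 11.8% of those of Stat5b occurred unchanged in the other gene, and no other pair of the 9 genes shared such a window. A short read from the shared windows cannot be assigned to 1 of the 2 genes, and the authors kept reads with several hits, so the split of reads between Stat5a and Stat5b is uncertain.

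The promoters of the 9 genes (RefSeq, GRCm38.p6, 250 bases before to 50 after the start site) were searched for letters of the elements that STATs are known to bind. The GAS core TTCNNNGAA, a palindrome, was in 0 of 9 members and in 9.55% of 27025 genes with a promoter window. The ISRE-like letters GAAA, then any 2 bases, then GAAA, searched on both strands, were in 2 of 9 members, against 3.99% of all genes. The matches were in Stat2 (window chr10:128270248-128270547, plus strand of the genome), 222 bases before the start site and on the strand opposite to the gene, and in Stat4 (window chr1:52007990-52008289, plus strand), 97 bases before the start. They are printed 5′ to 3′ along the gene because they are the only matches, with the matched letters in capitals.

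Stat2: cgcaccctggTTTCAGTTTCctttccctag
Stat4: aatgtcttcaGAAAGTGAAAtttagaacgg

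A match of letters is a description of the sequence and not a bound site.

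Tgfbr2, the deleted gene, was looked at first. Its RPKM (reads scaled to the length of the transcript and the size of the library, as deposited) was 36.1, 57.9, 36.5 and 51.4 in WT ILC2s and 49.1, 40.5 and 23.9 in Tgfbr2-/- ILC2s. In ILC2p it was 0.146, 59.1, 25.3 and 49.0 in WT and 16.9, 26.3, 6.83 and 38.7 in Tgfbr2-/- libraries. The genotypes overlapped in both cell types. The fitted log2 fold change was -0.46 (SE 0.24, adjusted p = 0.898) in ILC2s and -0.21 (SE 1.21, adjusted p = 0.989) in ILC2p (edgeR, quasi-likelihood test, Benjamini-Hochberg adjusted). Counts over a whole gene do not show whether the floxed part was lost, so they do not check the labels.

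The sorted cells were compared with lists of marker genes, as sums of CPM (counts over the TMM-scaled size of the library). The 10 ILC2 markers, with Gata3 as the most abundant, summed to 8033 to 9693 CPM in WT ILC2s, 6723 to 9421 in Tgfbr2-/- ILC2s, 6222 to 8713 in WT ILC2p and 2687 to 4155 in Tgfbr2-/- ILC2p. The 8 neutrophil markers summed to 91060, 76090, 75660 and 87250 CPM in the 4 Tgfbr2-/- ILC2p libraries, with S100a8 as the most abundant, and to 785.8, 1550, 923.4 and 1467 in WT ILC2p, with Mpo as the most abundant. None of the 8 was at 0 in any ILC2p library, and in ILC2s 6 to 8 of the 8 were at 0. Monocyte and macrophage markers, led by Lyz2, summed to 11730 to 13350 CPM in Tgfbr2-/- ILC2p and 42.6 to 81.1 in WT ILC2p, and mast cell and basophil markers to 1212 to 1908 and 111.3 to 297.7 (led by Prss34 and Cpa3). The Tgfbr2-/- ILC2p libraries thus carried far more granulocyte and monocyte mRNA than WT ILC2p, in every library. The study's methods exclude lineage-positive cells by antibodies that include anti-CD11b and anti-Gr-1, a gate meant to remove such cells. In bulk RNA fewer cells of a type and less RNA per cell cannot be told apart, and the part of these other cells in the ILC2p results given below was not tested.

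Of the remaining marker lists, T cell genes summed to 174.8 to 287.5 CPM in ILC2s, led by Lck, and 29.5 to 196.0 in ILC2p. B cell genes stayed between 0.707 and 165.1 CPM in all libraries, dendritic cell genes between 0.255 and 153.6 and erythroid genes between 0.515 and 115.2. NK cell and ILC1 genes, led by Gzma in ILC2s, summed to 217.7 to 391.5 CPM in WT ILC2s, 293.3, 497.1 and 944.5 in Tgfbr2-/- ILC2s, 0.446 to 37.4 in WT ILC2p and 94.5 to 428.1 in Tgfbr2-/- ILC2p. ILC3 genes reached 493.7 CPM in WT ILC2s. Epithelial genes reached 1298 CPM in the Tgfbr2-/- ILC2 library of experiment 2, led by Krt8, and endothelial and stromal genes 352.4 CPM in WT ILC2s.

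Some ILC2p libraries lacked single genes that were abundant in the others. The genes considered were those whose median in the remaining libraries of a cell type reached 50 CPM. Of these, 14.2% were under 1 CPM in WT ILC2p replicate 1 of experiment 1, 12.1 and 13.8% in both Tgfbr2-/- ILC2p libraries of experiment 1 and 8.33% in Tgfbr2-/- replicate 2 of experiment 2. The share was 1.56 to 3.65% in the other ILC2p libraries and at most 0.0285% in ILC2s. ILC2p values of single genes also spread more than ILC2 values, and the part of the missing genes in this spread was not tested. Results for ILC2p are also given without the 3 libraries that lacked the most genes. This leaves 1 WT library of experiment 1 and all 4 of experiment 2, so that the genotypes are then compared within experiment 2 only.

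All 9 genes were expressed in ILC2s, and they spanned a wide range of levels. Over all 15 libraries the median RPKM was 115.5 for Jak1, 87.8 for Stat3, 77.7 for Jak3, 67.4 for Stat6, 45.2 for Stat4, 25.3 for Jak2, 23.95 for Stat5b, 14.2 for Stat5a and 8.08 for Stat2. Jak1 and Jak3, whose kinases serve receptors that hold the common γ chain, were thus above Jak2, and Stat3 and Stat6 above both Stat5 genes. Together the 9 genes took 0.103 to 0.239% of the counts of a library.

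In ILC2s the order was Jak1, Stat3, Stat6, Jak3, Stat4, Jak2, Stat5b, Stat5a and Stat2. All 8 pairs of neighbours in this order overlapped across the 7 libraries, while 21 of the 36 pairs of genes did not overlap. In ILC2p all 8 neighbouring pairs overlapped too, and 6 of 36 pairs did not. Stat2 was the lowest of the 9 in 7 of 7 ILC2 libraries and in 5 of 8 ILC2p libraries. Jak1 was the highest in 4 ILC2 and 5 ILC2p libraries, and Stat3 in 2 and 3.

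**Figure D1:**
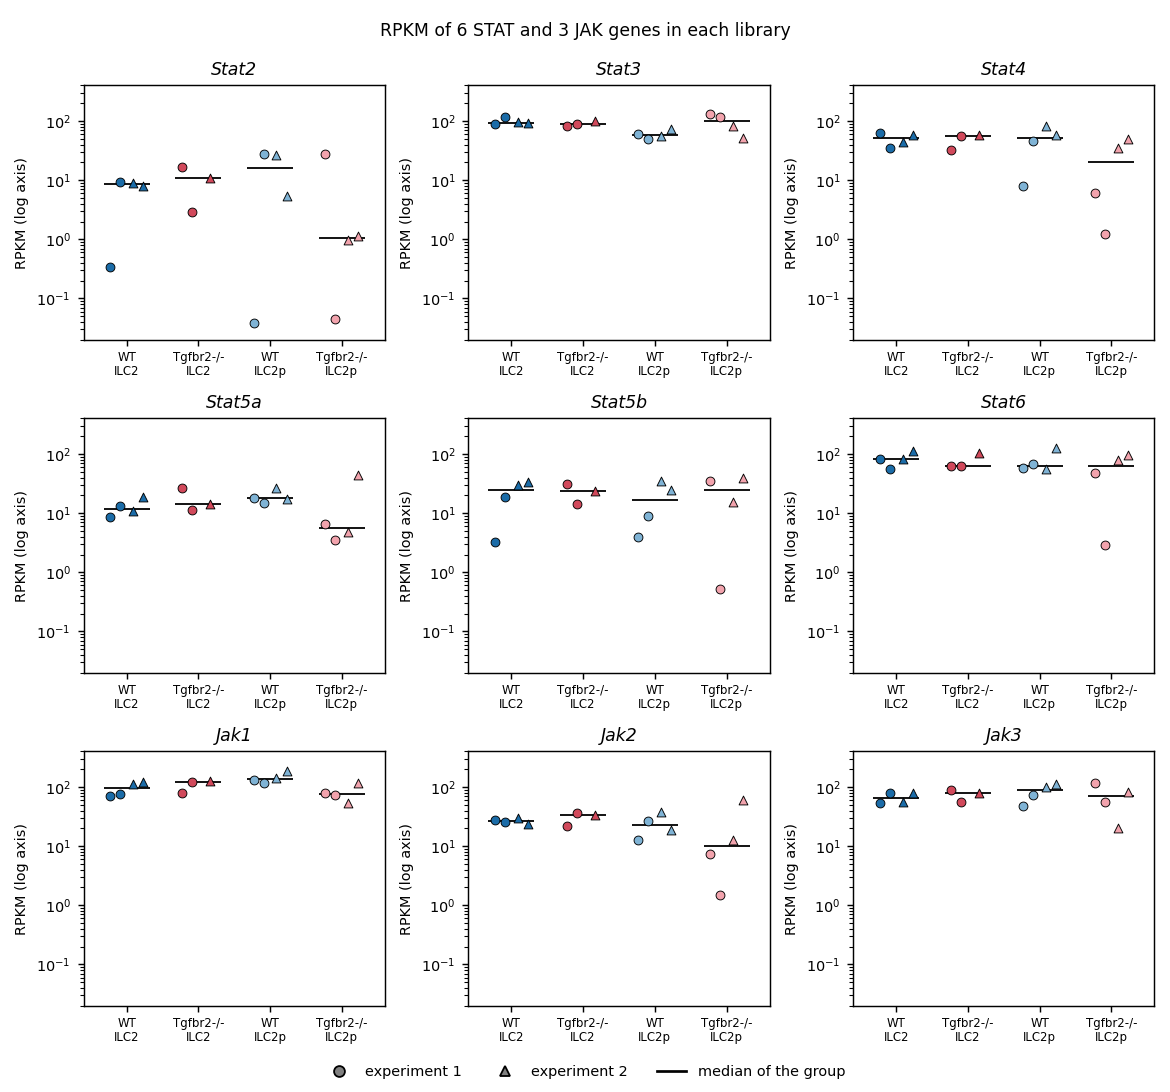
RPKM of the 9 genes on a log axis, with 1 point per library, circles for experiment 1, triangles for experiment 2 and a bar at the median of each group. Stat3 stays between 50.3 and 129.5 RPKM and Jak1 between 53.3 and 185.5 over all libraries, whereas Stat2 reaches down to 0.0391 RPKM in WT ILC2p and 0.0452 in Tgfbr2-/- ILC2p.

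Among the STATs, Stat2, the partner of the interferon receptors, was the lowest and the most scattered. It had 1.497, 39.1, 34.0 and 30.3 CPM in WT ILC2s and 65.4, 12.3 and 40.7 in Tgfbr2-/- ILC2s. In ILC2p it had 0.178, 103.8, 103.7 and 19.2 CPM in WT and 134.5, 0.207, 4.04 and 5.92 in Tgfbr2-/- libraries, where the lowest value of either genotype stands for 2 counts. High and low libraries occurred in both genotypes. The SD of Stat2 within groups of ILC2s was above that of 96.7% of genes of like level, and that of Stat5b above 99.2%, whereas Stat3 was above 16.5%. In ILC2p the SD of Stat2 was above that of 84.9% of genes of like level, that of Stat6 above 95.9% and that of Stat3 above 28.7%.

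Stat3, which receives signals of the IL-6 and IL-10 families, was among the steadiest members. Its RPKM was 89.7, 116.1, 94.7 and 91.9 in WT ILC2s and 83.5, 87.8 and 99.5 in Tgfbr2-/- ILC2s, and the genotypes overlapped. It was 59.6, 50.3, 55.7 and 73.2 in WT ILC2p and 129.5, 116.7, 83.4 and 51.6 in Tgfbr2-/- ILC2p. All WT ILC2p values lay below all WT ILC2 values, and Tgfbr2-/- ILC2p held both the highest and nearly the lowest values of the gene. Stat4, the STAT of IL-12, ranged from 32.7 to 62.1 RPKM in ILC2s but was 7.93, 45.2, 83.2 and 57.4 in WT ILC2p and 6.18, 1.23, 34.5 and 49.4 in Tgfbr2-/- ILC2p, and the 3 lowest of these were all in experiment 1. Stat6, the STAT of IL-4 and IL-13, was 82.0, 56.0, 81.5 and 114.3 RPKM in WT ILC2s and 62.6, 61.6 and 102.3 in Tgfbr2-/- ILC2s. In ILC2p it was 55.3 to 124.3 RPKM in WT and 48.3, 2.90, 78.4 and 96.2 in Tgfbr2-/- libraries, where 1 library stood far below the others.

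Stat5a and Stat5b serve IL-2, IL-7 and IL-9 receptors. Stat5a was 8.46 to 19.1 RPKM in WT ILC2s, 11.4 to 26.9 in Tgfbr2-/- ILC2s, 15.03 to 26.3 in WT ILC2p and 3.47 to 44.8 in Tgfbr2-/- ILC2p. Stat5b was 3.27 to 33.4, 14.2 to 31.4, 3.97 to 35.0 and 0.529 to 38.8 RPKM in the same groups. Both genes overlapped between all groups.

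Of the kinases, Jak1 was 70.1, 77.4, 114.3 and 121.1 RPKM in WT ILC2s and 80.6, 123.1 and 125.9 in Tgfbr2-/- ILC2s. In ILC2p it was 132.2, 116.4, 139.7 and 185.5 RPKM in WT and 80.0, 74.1, 53.3 and 115.5 in Tgfbr2-/- libraries. The latter lay below every WT ILC2p library on this scale, and on the TMM scale 1 of them, at 674.6 CPM, was above 3 of the 4 WT libraries, which had 673.5, 477.5, 612.4 and 737.3 CPM. Jak3 ranged from 52.8 to 87.9 RPKM in ILC2s and from 20.1 to 118.2 in ILC2p. Jak2 ranged from 22.3 to 36.9 RPKM in ILC2s and from 1.498 to 59.3 in ILC2p, and the highest and the lowest Jak2 values were both in Tgfbr2-/- ILC2p.

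The first comparison asked whether loss of Tgfbr2 went with altered JAK and STAT mRNA in mature ILC2s. No member passed the test, which required an adjusted p under 0.1 and a fold change over 1.5, and of all 11981 genes tested 0 passed (0%). At an unadjusted p under 0.05 there were 557 genes (4.65%), and DESeq2 called 326. The smallest error was that of Stat3, with a log2 fold change of -0.20 (95% interval -0.58 to 0.19, adjusted p = 0.903). Jak1 had 0.24 (-0.20 to 0.69, adjusted p = 0.898) and Jak3 0.09 (-0.40 to 0.59). For Stat6 the value was -0.15 (-0.66 to 0.35), for Stat4 -0.09 (-0.81 to 0.63) and for Jak2 0.17 (-0.41 to 0.75), so that for these genes a change of more than about 1 on the log2 scale lay outside the interval. For Stat5a (0.39, -0.54 to 1.31), Stat5b (0.44, -0.89 to 1.76) and Stat2 (0.69, -1.49 to 2.87) the intervals were wider. The groups overlapped for 9 of 9 members, and did not for 5.48% of 8753 genes with at least 10 CPM. Within both experiments taken apart, no member had its genotypes on separate sides in CPM (13.2% of the 8753 genes did). In RPKM, where 13.2% did as well, Jak1 had 70.1 and 77.4 in WT against 80.6 and 123.1 in Tgfbr2-/- in experiment 1, and 114.3 and 121.1 against 125.9 in experiment 2. The median log2 fold change was 0.15 over the STATs and 0.17 over the JAKs, beside -0.01 over all genes.

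The receptors that use these kinases gave the same count in ILC2s. Of the receptors of the common γ chain and the related chains 0 of 9 tested passed. The lists of receptors of the β common, gp130, IL-10, IL-12 and growth hormone families (9 tested), interferon receptors (4), SOCS proteins (8), phosphatases, PIAS proteins and adaptor inhibitors (15) and known STAT5, STAT3 and STAT6 targets (19) also held 0 called genes, with median log2 fold changes between -0.12 and 0.19 over these 6 lists. DESeq2 called 1 receptor of the common γ chain list, 2 SOCS genes and 3 targets, where a gene may be on more than 1 list. Il2rg, the common γ chain itself, had a median of 1746 CPM in WT and 2045 in Tgfbr2-/- ILC2s, and Il7r, which with it forms the IL-7 receptor, 423.4 and 430.4.

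Interferon-stimulated genes, which are switched on by STAT complexes below the interferon receptors, also held 0 called genes of 18 tested in ILC2s. Their median log2 fold change was 1.17, beside -0.01 over all genes, and 14 of 18 were above 0. At an unadjusted p under 0.05 there were 5 of them, and DESeq2 called 3. Between the experiments in ILC2s, with the genotype held fixed, the counts were the same (14 of 18 above 0 in experiment 2 and 5 at an unadjusted p under 0.05, median 0.56). Over all genes, however, 4.65% were at an unadjusted p under 0.05 for the genotype and 13.3% between the experiments. Summed over the list, WT ILC2s had 908.3, 874.6, 794.3 and 733.7 CPM and Tgfbr2-/- ILC2s 1065, 955.0 and 1175, so that the groups did not overlap, nor did they with library size alone as the scale or in RPKM. The share of other gene lists whose sums lay apart by genotype was not computed in either cell type. Isg15, a ubiquitin-like protein, had 39.9 to 82.8 CPM in WT and 84.4 to 165.7 in Tgfbr2-/- ILC2s (log2 fold change 0.91, SE 0.23, adjusted p = 0.898). Irf9, the DNA-binding partner of STAT2, had 34.0 to 75.8 and 66.5 to 85.2 CPM (0.70, SE 0.26, adjusted p = 0.898). Gbp2, a guanylate-binding protein, had -0.24 (SE 0.20). The median of the list was 1.25 under upper-quartile scaling and 0.645 without Tgfbr2-/- replicate 1 of experiment 1, the lowest of the alternatives run. Isg15, Irf9 and Gbp2 were named after their values were seen.

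Markers of other cells in ILC2s held 0 called genes by genotype on each list, and the medians of the lists lay on both sides of 0. The median log2 fold change was 1.47 over 5 tested NK cell and ILC1 genes, 2.44 over 4 monocyte and macrophage genes, 3.53 over 6 epithelial genes and 0.68 over 4 ILC3 genes. It was -2.75 over 5 endothelial and stromal genes and -0.39 over 2 erythroid genes. Klrb1c, which encodes NK1.1, had 2.03 to 7.32 CPM in WT and 14.0 to 29.3 in Tgfbr2-/- ILC2s, without overlap, while Eomes, a factor of NK cells, was at 0 in all 7 libraries. Epithelial genes summed to 6.79 and 15.9 CPM in WT and 43.9 and 42.1 in Tgfbr2-/- libraries of experiment 1, and to 111.5 and 445.2 against 1298 in experiment 2. Monocyte and macrophage genes summed to 0.0936 to 159.3 CPM in WT and 8.37 to 18.7 in Tgfbr2-/- ILC2s, so that the WT range spanned the other. The part of these cells in the values of the interferon-stimulated genes was not tested.

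In ILC2p the question was the same for the precursors. No member passed, beside 321 of 9242 genes (3.47%). Of these 241 were higher and 80 lower in Tgfbr2-/-, so that 75.1% were higher. This share was 55% by DESeq2, 63% with upper-quartile scaling, 82.3% without a filter, 88.6% with the replicate block, 97.4% in experiment 2 alone and 100% in experiment 1 alone. The smallest p among the members was that of Stat3, with 275.0, 187.3, 221.6 and 264.2 CPM in WT (mean 237.0 ± 40.4, SD, n = 4) and 633.5, 541.7, 355.9 and 273.4 in Tgfbr2-/- libraries (451.1 ± 165.5). In each experiment both Tgfbr2-/- libraries lay above both WT libraries in CPM, which held for 1 of the 9 members and, in either direction, for 13.3% of 9599 genes. In RPKM Stat3 overlapped in experiment 2, and Jak1 and Stat4 were lower in both Tgfbr2-/- libraries of each experiment than in both WT libraries. By RPKM 14.5% of genes were separate in 1 direction in both experiments. Over both experiments the lowest Tgfbr2-/- library of Stat3 fell just below the highest WT library in CPM. The log2 fold change was 0.83 (95% interval 0.03 to 1.63, adjusted p = 0.482 by edgeR's quasi-likelihood test). It was 1.33 in experiment 1 alone and 0.31 in experiment 2 alone (adjusted p = 0.933). Without the 3 libraries that lacked the most genes it was 0.31 too, but this is the same contrast, since they include both Tgfbr2-/- libraries of experiment 1 and the genotypes are then compared within experiment 2 only.

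**Figure D2:**
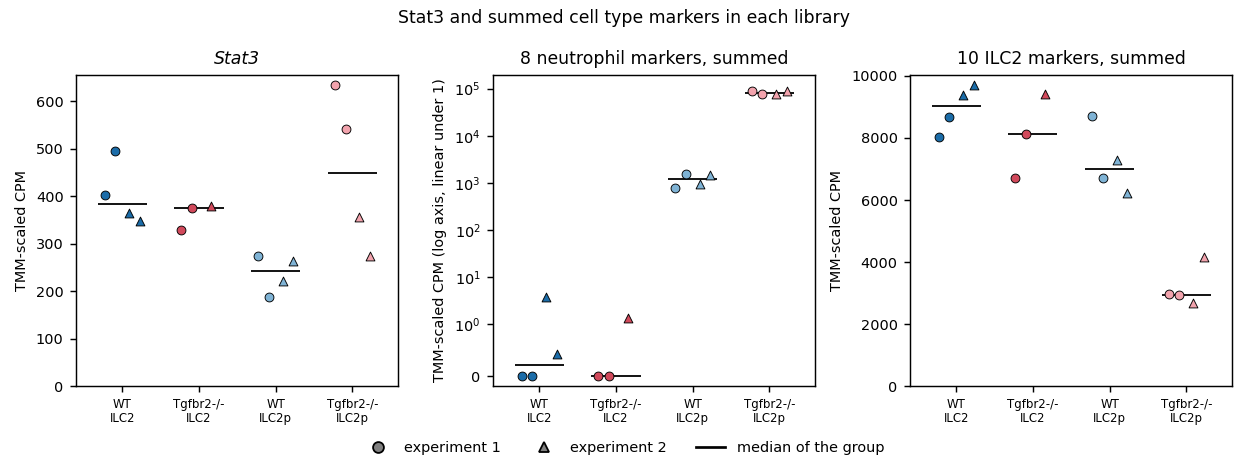
CPM of Stat3 beside the summed CPM of the 8 neutrophil and 10 ILC2 markers in each library, with circles for experiment 1 and triangles for experiment 2. Stat3 lies at 273.4 to 633.5 CPM in Tgfbr2-/- ILC2p and 187.3 to 275.0 in WT ILC2p, while the neutrophil sum is at least 75660 CPM in the former and at most 1550 in the latter.

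Jak1 had an interval about as wide as that of Stat3 in ILC2p, and the other 7 members had wider ones. Jak1 had a log2 fold change of -0.56 (-1.32 to 0.19, adjusted p = 0.752) and Stat4 of -1.49 (-3.54 to 0.57, adjusted p = 0.768). Jak3 had 0.03 (-1.29 to 1.36), Stat6 -0.40 (-2.12 to 1.32), Jak2 -0.60 (-2.80 to 1.61), Stat5a -0.51 (-2.93 to 1.91) and Stat5b 0.98 (-1.48 to 3.43). Stat2 had -1.66 with an interval from -7.09 to 3.77, which spans large changes in both directions. For Stat5a, Stat6, Jak2 and Jak3 the sign turned when only experiment 2 was used (0.52, 0.26, 0.67 and -0.69). In CPM the groups overlapped for 9 of 9 members and did not for 9.53% of 9599 genes. In RPKM the groups of Jak1 lay apart by little, at 116.4 to 185.5 in WT and 53.3 to 115.5 in Tgfbr2-/- ILC2p. The share of all genes whose groups lay apart in RPKM was not computed. Medians were -0.46 over the STATs and -0.56 over the JAKs, and -0.10 over all genes.

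Of 76 tested genes on the lists around the members 12 passed in ILC2p, where 3.47% of all genes did. The difference between these lists and the 9 members was not tested. Among receptors of the β common and related families 3 of 12 tested were higher and 1 was lower in Tgfbr2-/- ILC2p. Csf3r, the G-CSF receptor, rose from 0.803, 0.814, 2.21 and 1.38 CPM in WT to 282.5, 332.5, 334.3 and 559.7 (log2 fold change 8.22, SE 0.58, adjusted p = 9.13e-05). Csf2ra, the GM-CSF binding chain, rose by a log2 fold change of 5.99 (SE 1.47, adjusted p = 0.0861) and Csf2rb, the chain shared by IL-3, IL-5 and GM-CSF, by 6.37 (SE 1.56, adjusted p = 0.0839). These chains are abundant in granulocytes and monocytes, whose markers moved the same way, as given above, and the part of those cells in the rise was not tested. Il10ra, the ligand-binding chain of the IL-10 receptor, fell from 23.7, 129.2, 108.3 and 37.7 CPM to between 0.271 and 0.426 (log2 fold change -7.73, SE 1.46, adjusted p = 0.0278).

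Of 10 tested receptors of the common γ chain and the related chains, 1 was higher and 1 was lower. Il13ra1, which pairs with IL-4Rα, had at most 0.311 CPM in WT ILC2p and 28.5 to 81.2 in Tgfbr2-/- ILC2p (log2 fold change 8.24, SE 1.55, adjusted p = 0.0269). Il9r, the IL-9 receptor, had 17.9, 42.6, 60.1 and 71.9 CPM in WT and 0 to 0.658 in Tgfbr2-/- libraries (log2 fold change -7.23, SE 1.74, adjusted p = 0.0801). Il2rg had a median of 2036 CPM in WT and 976.1 in Tgfbr2-/- ILC2p, and Il7r 738.7 and 410.6, and neither passed. Ifngr1, the ligand-binding chain of the IFN-γ receptor, was the 1 of 4 interferon receptor genes that passed: 258.3, 276.9, 135.7 and 182.1 CPM in WT and 667.5, 728.9, 421.9 and 586.0 in Tgfbr2-/- (log2 fold change 1.49, SE 0.28, adjusted p = 0.0253).

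Among 7 tested SOCS genes Socs6 alone passed and was lower (log2 fold change -6.71, SE 1.66, adjusted p = 0.0889), with 1 to 9 counts in each Tgfbr2-/- library. Of 19 tested STAT targets 2 were higher and 2 lower. Osm, a cytokine of the IL-6 family, rose from 200.6, 121.3, 128.8 and 116.8 CPM to 523.8, 602.4, 512.3 and 418.7 (log2 fold change 1.84, SE 0.32, adjusted p = 0.0187). Ccnd3, a D-type cyclin, had a log2 fold change of 1.74 (SE 0.33, adjusted p = 0.0266), and its relative Ccnd2 of -1.26 (SE 0.26, adjusted p = 0.0467). Junb, an AP-1 factor, fell from 12590 to 23130 CPM in WT to 5750 to 10430 in Tgfbr2-/- (log2 fold change -1.15, SE 0.22, adjusted p = 0.0269). Phosphatases and PIAS genes (15 tested) and interferon-stimulated genes (14 tested) held 0 called genes. The latter had a median log2 fold change of 1.29 (1.02 under upper-quartile scaling), beside -0.10 over all genes. Of these 14 genes 2 were at an unadjusted p under 0.05, as were 9.71% of all genes. DESeq2 called 3 of the 14, beside 1229 of all 9242 genes. The sum of the interferon-stimulated genes was 760.9 and 730.4 CPM in WT and 927.5 and 875.5 in Tgfbr2-/- ILC2p of experiment 1, and 569.0 and 439.9 against 945.7 and 749.9 in experiment 2. The genotypes lay apart within each experiment on this scale, but those of experiment 1 overlapped with library size alone as the scale and in RPKM. The part of the granulocyte, monocyte and NK cell markers, which differed between these groups as given above, was not tested.

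Many of the 12 calls in ILC2p were lost in other fits. With all 8 libraries, the replicate block lost 7 (Csf2ra, Il13ra1, Ccnd3, Il10ra, Il9r, Socs6 and Ccnd2), upper-quartile scaling 3 (Csf2rb, Csf2ra and Ccnd3), no filter 2 (Il9r and Socs6) and no covariate 1 (Csf2rb). In experiment 1 alone only Csf2ra of the 12 stayed called and in experiment 2 alone only Csf3r, also with the WT library of experiment 1 that is left without the 3 libraries that lacked the most genes. Leaving out any 1 of the 8 libraries lost 4 to 7 of the 12, with Il9r and Socs6 lost each time. The log2 fold changes kept their sign in all alternatives run: they ranged from 1.56 to 2.00 for Osm, from 1.16 to 1.62 for Ifngr1, from 7.62 to 8.83 for Il13ra1 and from -8.08 to -7.14 for Il10ra, and more widely for Csf2ra (3.14 to 8.89) and Csf2rb (4.20 to 8.66).

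Levels in mature and precursor cells were compared within each genotype. Tissue, host, sort and experiment differ together between the cell types and cannot be told apart. In WT libraries no member passed, beside 268 of 10468 genes (2.56%), of which 71.3% were higher in ILC2s (55.1% by DESeq2, 76.9% with upper-quartile scaling). Stat3 came closest, with 403.4, 495.8, 365.5 and 348.5 CPM in ILC2s (403.3 ± 65.8, SD, n = 4) and 187.3 to 275.0 in ILC2p, and a log2 fold change of 0.77 (95% interval 0.28 to 1.27, adjusted p = 0.178 by edgeR's test). It was the 1 member whose WT groups did not overlap, which 11% of 9140 genes also showed. With upper-quartile scaling it passed, at 0.91 (adjusted p = 0.0618), and with at least 10 counts in every library at 0.89. It stayed positive, from 0.66 to 0.91, in all alternatives run.

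Jak1 had the opposite sign, 346.0, 363.4, 485.6 and 506.6 CPM in WT ILC2s and 477.5 to 737.3 in WT ILC2p (log2 fold change -0.55, 95% interval -1.04 to -0.05, adjusted p = 0.453). The groups overlapped. Stat4 (0.14), Stat6 (0.20), Jak2 (0.21), Jak3 (-0.26), Stat5b (0.36), Stat5a (-0.55) and Stat2 (-1.10) all had intervals that included 0.

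**Figure D3:**
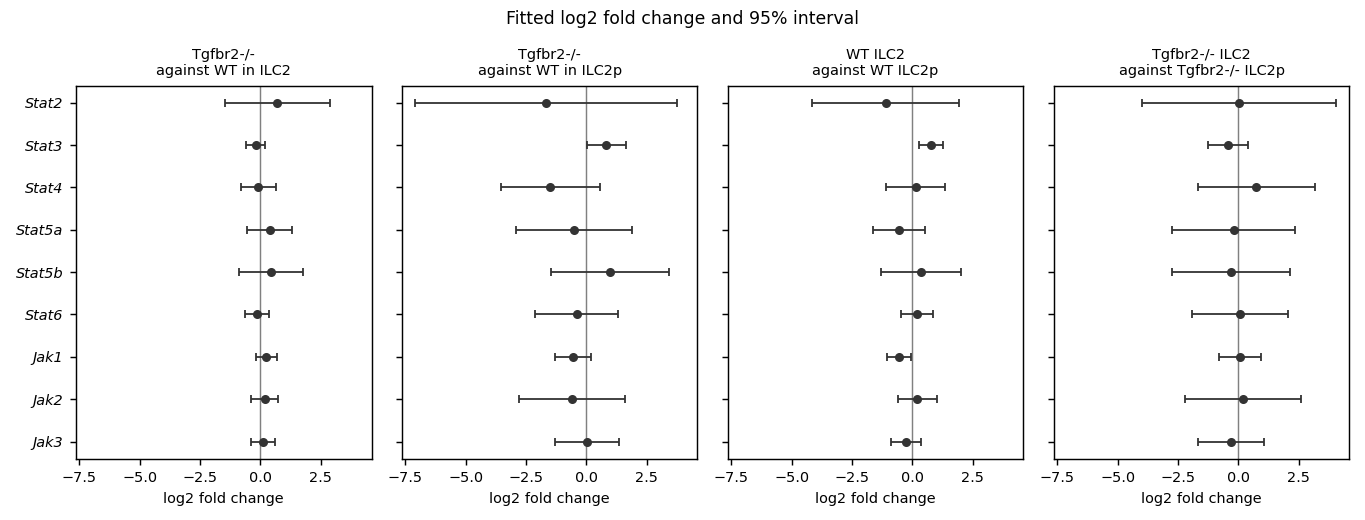
Fitted log2 fold changes of the 9 genes (points) with their 95% intervals (bars) in 4 comparisons, on 1 common scale. The intervals are narrow for Stat3 and Jak1 and widest for Stat2, and in WT libraries the interval of Stat3 (0.28 to 1.27) lies to the right of 0 and that of Jak1 (-1.04 to -0.05) to the left.

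Of the lists, 1 of 9 receptors of the common γ chain and the related chains was higher in WT ILC2s than in WT ILC2p. This was Il9r, with 131.7 to 274.7 CPM in ILC2s (log2 fold change 2.13, SE 0.46, adjusted p = 0.0546). Ifngr1 was higher too, with 435.2 to 568.2 CPM in ILC2s (log2 fold change 1.19, SE 0.26, adjusted p = 0.0627). Il6ra, the IL-6 binding chain, was lower in ILC2s, where it had 0.0481 to 0.957 CPM against 13.4 to 88.0 in ILC2p, as was Csf3r, with at most 1 count in each WT ILC2 library. These 4 calls were all lost without WT ILC2 replicate 1 or 2 of experiment 1 or replicate 2 of experiment 2. The SOCS, phosphatase, target and interferon-stimulated lists held 0 called genes. Of the markers of other cells, 7 of 8 neutrophil and 2 of 3 tested mast cell and basophil genes were lower in WT ILC2s. On the B cell list, the NK cell and ILC1 list and the ILC3 list, 1 gene each was higher. The part of such cells in the calls of Il6ra and Csf3r was not tested.

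In Tgfbr2-/- libraries the same contrast called 1575 of 11469 genes (13.7%) and no member. Of the calls 66.5% were higher in ILC2s, against 77.5% with upper-quartile scaling, 50.8% by DESeq2 and 35.2% with at least 10 counts in every library. Stat3 had 329.8, 375.7 and 379.9 CPM in ILC2s and a log2 fold change of -0.42 (95% interval -1.25 to 0.41, adjusted p = 0.724), which was 0.19 under upper-quartile scaling, where the median of all genes moved by 0.61. Jak1 had 0.07 and Stat4 0.75 (adjusted p over 0.1 for both). The groups overlapped for 9 of 9 members, against 21.1% of 9646 genes whose groups did not. The WT and Tgfbr2-/- contrasts share no library.

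In the lists around the members, genes of both receptor groups that are named next were called in this contrast. Of 10 receptors of the common γ chain and the related chains 2 were higher in ILC2s: Il9r had 87.5 to 197.2 CPM (log2 fold change 8.37, adjusted p = 0.0161) and Il2rb, the IL-2 and IL-15 signalling chain, 456.3 to 1115 CPM against 0.397 to 23.5 in ILC2p (log2 fold change 6.14, adjusted p = 0.0287). Of 13 receptors of the other families 1 was higher, Il10ra (log2 fold change 6.84, adjusted p = 0.0238), and 5 were lower, among them Csf2ra (-4.64, adjusted p = 0.00896), Il6ra (-7.76, adjusted p = 0.0255) and Csf3r, which was at 0 in all 3 Tgfbr2-/- ILC2 libraries. Socs6 was higher in ILC2s (5.91, adjusted p = 0.027), and of 19 targets 4 were higher, among them Pim3 (3.001, adjusted p = 0.0269), Ccnd2 (1.33, adjusted p = 0.0167) and Junb (1.21, adjusted p = 0.0212), and 3 were lower, namely Osm (-3.18, adjusted p = 0.00261), Ccnd3 (-1.66, adjusted p = 0.027) and Mcl1 (-1.96, adjusted p = 0.0655), whose call was lost in 8 of 12 alternatives, among them without any 1 of 4 libraries (each Tgfbr2-/- ILC2 library and Tgfbr2-/- ILC2p replicate 2 of experiment 1). The call of Ccnd3 was lost with upper-quartile scaling and with at least 10 counts in every library, and that of Junb by DESeq2. Of the 16 interferon-stimulated genes tested, Mx2 was called, at 1.99 to 5.36 CPM in ILC2s and at most 1 count in ILC2p, a call that was lost without a filter. As a group the interferon-stimulated genes summed to 955.0 to 1175 CPM in Tgfbr2-/- ILC2s and 749.9 to 945.7 in Tgfbr2-/- ILC2p. Their median log2 fold change was -0.0037, beside -0.265 over all genes, and 8 of the 16 were above 0. The granulocyte and monocyte markers differ between these groups as well, and their part in these calls was not tested.

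Whether the genotype effect differed between ILC2s and ILC2p was tested in 1 fit over all 15 libraries. It differed for no member, beside 127 of 12806 genes (0.992%), of which 47.2% had the higher effect in ILC2s (71.9% with upper-quartile scaling and 59.7% by DESeq2). Stat3 had the smallest p, with a difference of log2 fold changes (ILC2s minus ILC2p) of -1.03 (95% interval -1.90 to -0.16, adjusted p = 0.306). For Jak1 it was 0.80 (SE 0.43, adjusted p = 0.522) and for Stat2 2.33 (SE 2.72). Among the lists it differed for Il9r (6.35, adjusted p = 0.00904), Il10ra (7.56, adjusted p = 0.00941), Socs6 (8.14, adjusted p = 0.0766), Osm (-2.16, adjusted p = 0.0494), Csf2ra (-7.17, adjusted p = 0.0733) and Csf3r, for which the value rests on ILC2p because ILC2s had at most 1 count. All 6 calls were lost without the Tgfbr2-/- ILC2 library of experiment 2.

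Because the split of reads between Stat5a and Stat5b is uncertain, as given above, so is their ratio. The ratio of Stat5b to Stat5a within a library does not depend on how the library is scaled. It was 0.387, 1.42, 2.74 and 1.75 in WT ILC2s, 1.17, 1.24 and 1.69 in Tgfbr2-/- ILC2s, 0.217, 0.594, 1.33 and 1.39 in WT ILC2p and 5.40, 0.152, 3.15 and 0.866 in Tgfbr2-/- ILC2p, on the RPKM scale. Stat5b was above Stat5a in 6 of 7 ILC2 libraries and 4 of 8 ILC2p libraries. The mean log2 ratio differed by 0.27 between genotypes in ILC2s (two-sided exact permutation p = 0.889), by 0.81 in ILC2p (p = 0.667, exact permutation within experiments) and by 0.87 between WT ILC2s and WT ILC2p (p = 0.343, exact permutation). The permutation between the cell types took all WT libraries as exchangeable, whatever their experiment. Adjusted over the 3 comparisons each p was 0.889. With 18 arrangements the ILC2 test cannot give a p under 0.0556.

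**Figure D4:**
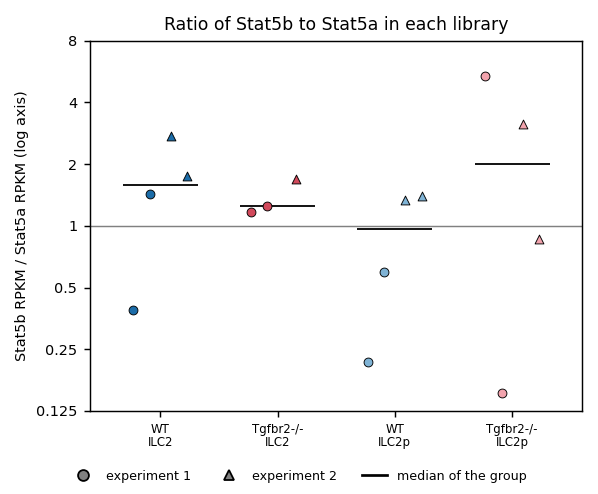
Ratio of Stat5b to Stat5a RPKM in each library on a log axis, circles for experiment 1 and triangles for experiment 2. The groups overlap, and Tgfbr2-/- ILC2p span the widest range, from 0.152 to 5.40.

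The 2 experiments of each cell type were compared with the genotype held fixed. In ILC2s 117 of 11981 genes passed (0.977%) and no member did. Of the calls 29.1% were higher in experiment 2, against 41.9% with upper-quartile scaling, 59.2% by DESeq2, 45.9% without a filter and 16% with at least 10 counts in every library. Of the members, Stat3 had a log2 fold change of -0.18 and Stat5b of 0.78 (SE 0.58, adjusted p = 0.604). Over the alternatives run, Stat3 ranged from -0.38 to -0.023 and Stat5b from 0.248 to 1.41. Of 77 tested genes on the lists 5 were lower in experiment 2: 4 of 19 STAT target and feedback genes, of which 2 are also the 2 called of 8 SOCS genes, and 1 of 9 receptors of the common γ chain and the related chains. The difference between these lists and the members was not tested. Pim1, a kinase induced by STAT5, had 2465, 2255, 1815 and 2476 CPM in experiment 1 and 795.0, 830.7 and 867.0 in experiment 2 (log2 fold change -1.47, SE 0.16, adjusted p = 0.0434). Pim3 (-1.17, SE 0.18, adjusted p = 0.0727), Cish (-1.22, SE 0.24, adjusted p = 0.098) and Socs3 (-1.22, SE 0.24, adjusted p = 0.0999), the latter 2 being SOCS family inhibitors, and Il2rb (-1.20, SE 0.23, adjusted p = 0.0815) gave like values. With all 7 libraries, upper-quartile scaling lost 4 of these 5 calls (Pim1 stayed), and at least 10 counts in every library lost Cish and Socs3. All 5 calls were lost without either WT library of experiment 1, without Tgfbr2-/- replicate 2 of experiment 1, without WT replicate 1 of experiment 2 or without the Tgfbr2-/- library of experiment 2. Epithelial markers summed to 6.79 to 43.9 CPM in experiment 1 and 111.5, 445.2 and 1298 in experiment 2, and ILC3 markers to 198.7 to 493.7 and 21.4 to 134.2. The part of these in the difference was not tested.

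**Figure D5:**
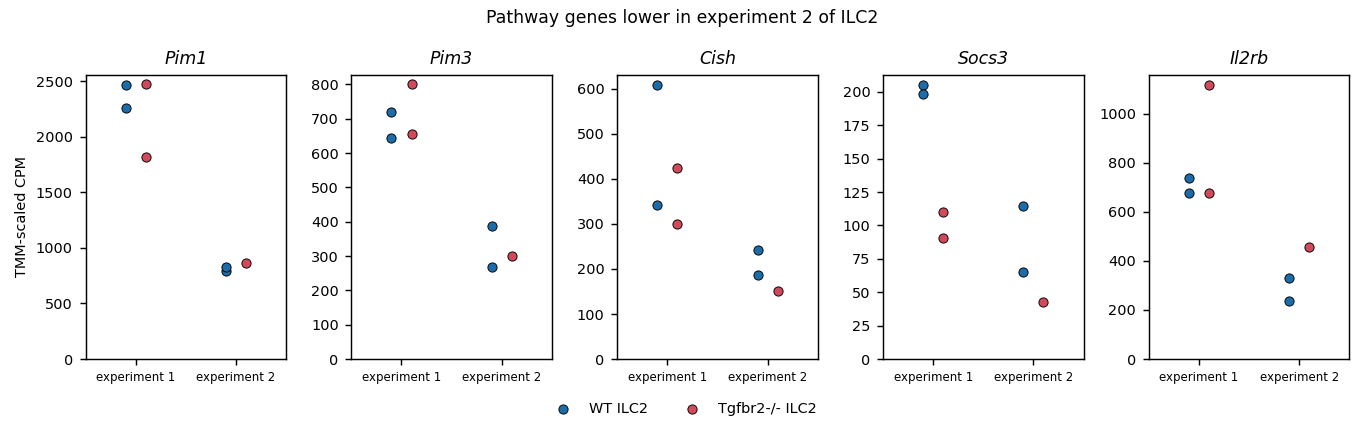
CPM of Pim1, Pim3, Cish, Socs3 and Il2rb in the 7 ILC2 libraries by experiment, with blue for WT and red for Tgfbr2-/-. Pim1 lies between 1815 and 2476 CPM in experiment 1 and between 795.0 and 867.0 in experiment 2, in both genotypes.

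In ILC2p 0 of 9242 genes differed between the experiments (0%), with 288 at an unadjusted p under 0.05 and 390 called by DESeq2. Stat4 had the smallest p among the members, with 24.5 and 112.7 CPM in WT and 20.3 and 3.84 in Tgfbr2-/- libraries of experiment 1 and 98.9 to 221.7 in experiment 2 (log2 fold change 2.40, 95% interval 0.30 to 4.51, adjusted p = 0.999). Experiment 1 holds the 3 libraries that lacked the most genes. Stat2 had a log2 fold change of -1.79.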

How the data were processed

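RNA-seq libraries of LP ILC2s and BM ILC2p were mapped by the authors to the mouse genome (mm9). The paper's methods name TopHat with up to 15 hits a read, and the submitters' processing notes list Bowtie2, with no version. The authors counted reads on UCSC RefSeq genes with rpkmforgenes, over full transcripts and without stretches shared by genes of different names, and deposited raw counts beside RPKM for each library. The strand of the libraries is not given in the sources used here. Sharing of multi-hit reads can move counts between near copies such as Stat5a and Stat5b, and gene-level counts hold no exon information.

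Levels are compared between genes on the deposited RPKM and between libraries on CPM, computed from the counts with TMM factors. Groups, experiments and replicate numbers come from the labels. Counts were tested with edgeR 4.0.16 (R 4.3.3), with TMM scaling, filterByExpr and the quasi-likelihood test over all genes, with experiment as a covariate within a cell type. A call needed a Benjamini-Hochberg adjusted p under 0.1 and a fold change over 1.5. The SE is the log2 fold change divided by the square root of F. No 2 libraries held identical values, and libraries of a group differed by a chi-square of at least 120.4 per gene. The edgeR test was also run on simulated counts with known changes, for the genotype within a cell type and between the cell types. Its recovery is not given here, so these runs do not show how often a real change is missed. The ratio of Stat5b to Stat5a was tested by exact permutation. Named list genes are up to 3 called genes each way per list with the smallest adjusted p, and the most similar patterns are the 2 genes with the highest Pearson r of log2(CPM + 1) among genes with a mean of at least 10 CPM. The members, lists and tests were chosen with earlier results of these data known, and the choice of the 3 libraries left out was added after seeing the data.

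Coding sequences were aligned with Biopython 1.88. Promoters are RefSeq's, and 9 of 9 members matched. Figures were drawn with matplotlib 3.10.9. Alternatives were DESeq2 1.42.0, upper-quartile scaling, other filters and thresholds, no covariate, a replicate block, experiment as a fixed term, each experiment alone and leaving out each library.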

Additional observations from a re-analysis of the deposited data

Results flagged for a closer look

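In groups of 4 libraries, 71 sets of values of the named genes were examined for a library far from the others, and 3 met the rule. Chance gives about 1 in 20, and 3 of 71 is not above that share, so the 3 are given as descriptions. Stat2 had 1.497 CPM in WT ILC2 replicate 1 of experiment 1, against 30.3 to 39.1 in the other WT ILC2 libraries. In WT ILC2p replicate 1 of experiment 1, which lacked many genes that were abundant elsewhere, Pim3 had 1.61 CPM against 94.7 to 193.4 in the other WT ILC2p libraries, and Ccnd3 had 137.6 CPM against 192.3 to 204.8.

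For 6 genes the genotype effect differed between ILC2s and ILC2p in the fit over all 15 libraries. These 6 calls were lost without the Tgfbr2-/- ILC2 library of experiment 2. That of Socs6 was lost in 12 of 18 alternatives and that of Csf2ra in 9 of 18. The difference of log2 fold changes, ILC2s minus ILC2p, was 6.35 for Il9r, 7.56 for Il10ra, 8.14 for Socs6, -2.16 for Osm, -7.17 for Csf2ra and -10.29 for Csf3r. The last value depends on the prior count of the fit, since the ILC2 libraries held at most 1 count of Csf3r. Il9r, Il10ra and Socs6 were at or below 0.658 CPM in all Tgfbr2-/- ILC2p libraries and at or above 5.80 CPM in all WT ILC2p libraries, whereas Csf2ra, Csf3r and Osm were higher in each Tgfbr2-/- ILC2p library than in any WT ILC2p library.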

How the results depend on the processing

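No member was called in any alternative other than Stat3, which passed between WT ILC2s and WT ILC2p with upper-quartile scaling or at least 10 counts in every library (1 member called in each). Over 540 refits of 37 member values, 496 kept their direction and side of the threshold and 42 changed sign. Of 572 refits of 41 values of pathway genes 196 lost the call. The causes of the changes below were not tested.

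Counts of called genes in ILC2s by genotype were 326 by DESeq2 and 3 without a filter. In ILC2p by genotype they were 1229 by DESeq2, 199 with at least 10 counts in every library, 38 in experiment 1 alone, 77 in experiment 2 alone and 61 without the 3 libraries that lacked the most genes (179 to 319 leaving out 1 library). Between WT ILC2s and WT ILC2p they were 604 by DESeq2, 176 without a filter and 473 with experiment as a fixed term (95, without WT ILC2 replicate 1 of experiment 2, to 370). Between the Tgfbr2-/- groups they were 389 with at least 10 counts (1095 to 2384), of which 35.2% were higher in ILC2s. For the difference of genotype effects they were 1518 by DESeq2, 203 with upper-quartile scaling, 259 without a filter and 68 at an adjusted p under 0.05 (14, without the Tgfbr2-/- ILC2 library of experiment 2, to 407). Between ILC2 experiments they were 1347 by DESeq2, 31 with upper-quartile scaling, 320 without a filter and 5 at an adjusted p under 0.05 (0, without the Tgfbr2-/- ILC2 library of experiment 2, to 19), and between ILC2p experiments 390 by DESeq2 and 5 without a filter.

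Upper-quartile scaling moved the median log2 fold change of all genes by 0.102 and -0.321 for the genotype in ILC2s and ILC2p, 0.107 and 0.611 between cell types in WT and Tgfbr2-/-, 0.356 for the difference of effects and 0.159 and 0.173 between experiments. It turned Stat4 in ILC2s to 0.020, Jak3 in ILC2p to -0.35 and Stat3 between the Tgfbr2-/- groups to 0.19. DESeq2 turned Jak1 between the Tgfbr2-/- groups to -0.10, at least 10 counts turned Jak3 in ILC2p to -0.12, no covariate turned Jak2 in ILC2p to 0.050 and experiment 1 alone turned Stat2 in ILC2p to 0.30. In experiment 2 alone, with 1 Tgfbr2-/- ILC2 library assumed to vary like the WT libraries, ILC2 values were 0.12 for Stat3, 0.19 for Stat4, -0.052 for Stat5a, -0.38 for Stat5b and 0.093 for Stat6, and ILC2p values were 0.52 for Stat5a, 0.26 for Stat6, 0.67 for Jak2 and -0.69 for Jak3 (0.53, 0.27, 0.67 and -0.68 without the 3 libraries, the same genotype contrast with 1 more WT library).

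Leaving out 1 library gave genotype effects in ILC2s of -0.16 to 2.43 for Stat2, -0.28 to 0.24 for Stat4, -0.031 to 0.69 for Stat5a, -0.10 to 1.08 for Stat5b, -0.29 to 0.075 for Stat6, -0.021 to 0.39 for Jak2 and -0.015 to 0.24 for Jak3. In ILC2p they were -0.83 to 1.36 for Stat5b, -1.03 to 0.12 for Stat6, -1.53 to 0.025 for Jak2 and -0.36 to 0.49 for Jak3. Between WT ILC2s and WT ILC2p Stat4 had -0.18 to 0.57, between the Tgfbr2-/- groups Jak1 had -0.12 to 0.38, and between ILC2p experiments Stat2 had -2.80 to 1.48. The difference of the mean log2 ratio of Stat5b to Stat5a by genotype was -0.31 to 0.70 in ILC2s and -0.33 to 1.73 in ILC2p.

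Deviations of samples of the same replicate number had correlations of -0.045 in ILC2 experiment 1 and of -0.00723 and -0.0363 in the ILC2p experiments. These rest on 2 libraries per genotype in an experiment and cannot decide whether the numbers pair the samples. With a replicate block the genotype called 175 genes in ILC2p, 0 in ILC2s, and Jak3 in ILC2p had -0.19. Genes missing from ILC2p libraries limit what can be seen of single genes there, and Stat2 had 2 counts in 2 of these libraries.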

Other observations

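The genes whose pattern over the 15 libraries was most like that of each member, after the mean of each cell type was subtracted, were found among 8924 genes. For Stat5b they were Narfl (r = 0.97) and Rp2h (0.91), for Stat6 Tceb1 and Hnrnpc (both 0.96), for Stat2 Cnpy4 (0.96) and Zcwpw1 (0.92), for Stat4 Dip2b (0.95) and Lmf2 (0.94) and for Stat3 Dhrs9 and Hist1h2bc (both 0.88). Those of Stat5a were Slx1b (0.88) and Rab37 (0.86), of Jak1 Iqgap2 (0.87) and Med23 (0.84), of Jak2 Ccdc101 and Calca (both 0.93) and of Jak3 Nfkbie (0.90) and Mef2a (0.88). The points share libraries and their missing genes, and these values are descriptions. Among the 36 pairs of members the median r was -0.17 in ILC2s (-0.79 to 0.95, 7 libraries) and 0.38 in ILC2p (-0.76 to 0.89, 8 libraries).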
